A study of Rattus norvegicus with 12 samples.

Results

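In rat PAC1 smooth muscle cells, 265 genes were at or below 0.5 of their control level when the muscleblind-like proteins MBNL1 and MBNL2 were knocked down, and stayed close to the control level when RBPMS was knocked down. They were selected on the measured values. A gene needed a mean of at least 200 counts in the differentiated control libraries (D1), a ratio of mean CPM (counts divided by the library total and multiplied by 1000000) of at most 0.5 in MBNL KD against D1, and a mean CPM in RBPMS KD1 no more than 25% below or 33% above D1. Mbnl1 and Mbnl2 themselves were left out. The count table holds 33294 genes, of which 11359 reached 200 counts in D1. Of these, 373 were at or below 0.5 in MBNL KD, the 2 targets included, and of these 65 lay below the RBPMS KD1 limits and 41 above them. The ratios to D1 in both knockdowns chose the genes, so all values and calls of members in these knockdowns are a description and support nothing. The level in proliferative cells played no part in the choice and was tested.

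PAC1 is a cell line from rat pulmonary artery smooth muscle that keeps a contractile gene program when passaged slowly and loses it when passaged often. The 12 poly(A) RNA-seq libraries form 4 groups of 3. D1 cells were split weekly at a 1:10 dilution and received a scrambled control siRNA. RBPMS KD1 and MBNL KD cells were kept in the same way and received an siRNA against Rbpms, or siRNAs against Mbnl1 and Mbnl2 together. P cells were split at 1:20, more often, and received the control siRNA. Each transfection used 90 pmol of siRNA per well, and the labels place a second transfection at 24 h and the harvest 48 h after it, whereas the study's methods describe a longer course. All groups are the same line. The study's methods call the 3 samples of a condition biological replicates, and the labels do not say how the cultures were separated, so the p-values measure the spread between these samples of a single line.

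MBNL proteins are zinc finger RNA-binding proteins that choose exons during splicing and also act on the 3′ ends, stability and localisation of mRNAs. RBPMS is an RNA recognition motif protein that directs a smooth muscle splicing program. A gene-level count does not distinguish isoforms, so a lower count says that fewer reads were assigned to the gene and not which of its transcripts were lost.

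The siRNAs are shown because the selection rests on them. The sense strands used against the 2 targets were as follows, with capitals at the bases that pair with the seed, bases 2 to 8 of the opposite strand, if the final UU is read as the overhang.
MBNL1: cacggaauguaAAUUUGCauu
MBNL2: gaagaguaauuGCCUGCUuuu
The seeds were GCAAAUU and AGCAGGC. None of the 692 distinct mature rat miRNAs in RefSeq carried either of them at bases 2 to 8. A single sequence was used per gene, so loss of MBNL protein and an effect of these sequences on other transcripts cannot be told apart, and the members' transcripts were not searched for matches.

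Both targets fell. Mbnl1 was at 330, 330 and 338 CPM in D1 and at 81.1, 81.8 and 84.0 in MBNL KD, 24.7% of D1. Mbnl2 was at 173, 170 and 175 CPM in D1 and at 51.9, 54.1 and 53.8 in MBNL KD, 30.8% of D1. Neither target overlapped between the groups. Mbnl3, the remaining paralog, was higher in MBNL KD, at 34.7 ± 1.05 CPM (SD, n = 3) against 15.9 ± 0.555, with a log2 fold change of 1.08 (SE 0.0433). Rbpms was at 86.8% of D1 in MBNL KD and at 25.3% in RBPMS KD1. In P cells Mbnl1 was at 135% and Mbnl2 at 58.5% of D1, whereas Rbpms was at 7.08%.

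Library totals ran from 80842635 counts (MBNL KD 3) to 90771289. The 21 contractile smooth muscle genes listed as markers, such as Acta2, Myh11 and Tagln, were all present in the table and summed to between 24170 and 24990 CPM in D1 and to between 4046 and 4175 in P. In the knockdowns they summed to 19710 to 19940 CPM (MBNL) and 14450 to 14730 (RBPMS). None of the 21 was a member, beside 265 of the 11359 genes with 200 counts, and this is not read as a result. The 10 macrophage and blood genes summed to 56.1 to 60.5 CPM in D1 and 53.1 to 56.0 in MBNL KD (Tyrobp at 0 in every library), and the 10 fibroblast genes to 21660 to 22480 and 24380 to 24890. The 10 endothelial genes summed to 8.84 to 9.95 CPM in D1 and 16.1 to 17.0 in MBNL KD, with Emcn and Cldn5 at 0 throughout. The 10 epithelial genes summed to 45.5 to 47.0 and 71.5 to 71.9 CPM, with Esrp1 at 0, and the 10 skeletal muscle genes to 8.76 to 11.9 and 13.0 to 16.5, with Myh1 and Tnni2 at 0. In P the neural list summed to 139 to 142 CPM against 18.7 to 20.1 in D1, the endothelial list to 58.0 to 58.6, the epithelial list to 90.7 to 94.8, the fibroblast list to 26470 to 28550 and the skeletal muscle list to 2.20 to 2.49. In RBPMS KD1 the macrophage and blood list summed to 83.0 to 84.9 CPM, the fibroblast list to 29530 to 31120, the skeletal muscle list to 3.01 to 3.25, the endothelial list to at most 12.9, the epithelial list to 47.9 to 51.9 and the neural list to 20.3 to 21.5. The part of these lists in the members' values was not tested.

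Across the members the reduction was alike in the 3 MBNL KD libraries. The median member was at 41.7%, 41.3% and 41.6% of its D1 mean in MBNL KD 1, 2 and 3, and at 100.4%, 100.7% and 100.7% in the RBPMS KD1 libraries. Most members sat near the limit: 158 lay between 40% and 50% of D1, 76 between 30% and 40%, 23 between 20% and 30%, 7 between 10% and 20%, and 1 below 10%. For all 265, every MBNL KD library was below every D1 library, which the selection largely fixes. The edgeR test across all genes called 4.14% of the 16053 genes tested lower in MBNL KD and 6.1% higher. All 265 members fall among the first, which the rule makes likely. The corresponding shares in RBPMS KD1 were 1.62% lower and 3.06% higher of 15904 genes, and no member was called there, again by the rule. Together the members took 2.59% to 2.60% of all counts in D1 and 0.991% to 1.01% in MBNL KD.

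**Figure D1:**
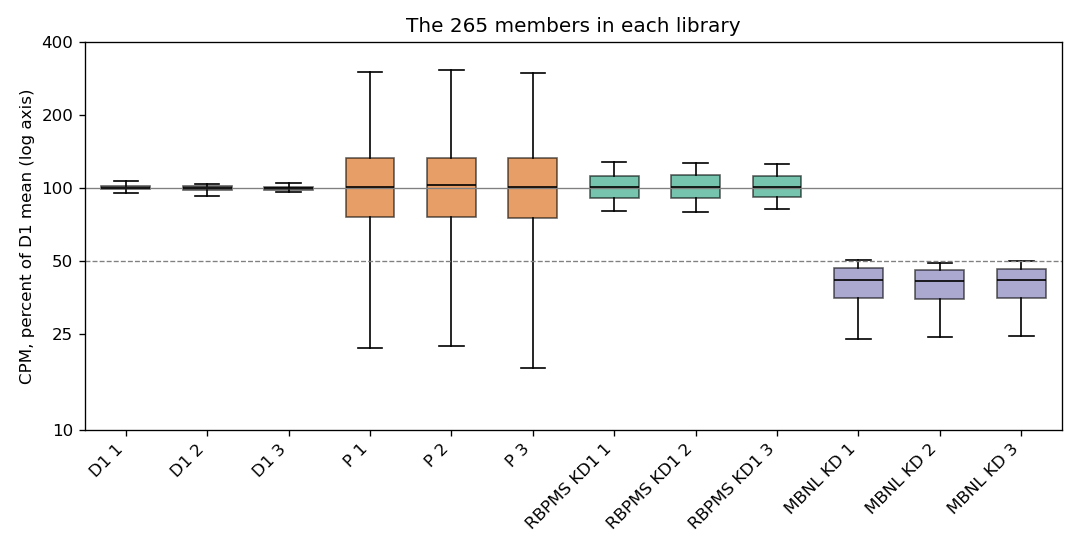
Level of the 265 members in each of the 12 libraries, as a percent of each gene's D1 mean CPM on a log axis. Boxes span the quartiles with the median as a line, whiskers reach the 5th and 95th percentiles, the solid line marks 100% and the dashed line 50%; the MBNL KD medians are between 41.3% and 41.7%, and the P boxes are centred near 100% but are the widest.

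The members were well expressed. Their median level in D1 was 50.5 CPM against 34.1 CPM for all 11359 genes with 200 counts, and 218 of the 265 had a mean of at least 1000 counts. The spread between replicates was small beside the selected difference, with a median coefficient of variation between 2.41% (D1) and 3.30% (MBNL KD) in the 4 groups. By symbol, 257 members were found in the RefSeq gene table, and 255 of these were protein coding (99.2%, against 97.9% of the matched genes with 200 counts).

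The lowest member was Smpd3, neutral sphingomyelinase 2, which releases ceramide from sphingomyelin. It was at 144, 148 and 147 CPM in D1 and at 7.02, 7.03 and 6.09 in MBNL KD, 4.59% of D1. In RBPMS KD1 it was at 185, 189 and 192 CPM, 129% of D1 and so near the upper limit of the rule. In P cells it was also low, at 14.1, 13.8 and 13.4 CPM. Smpd3 thus had low levels in the MBNL KD and P libraries and high levels in the other 6, without overlap. Arrdc4, an alpha-arrestin that is induced by glucose through MondoA, was at 9.83, 9.85 and 9.35 CPM in D1 and at 0.956, 1.37 and 1.21 in MBNL KD. Its P libraries lay in between, at 4.68, 4.08 and 4.16 CPM, and its RBPMS KD1 libraries, at 9.79, 9.65 and 8.68, overlapped D1.

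Atp6v0e1 encodes a small membrane subunit of the proton-pumping V-ATPase. It was at 76.5, 76.1 and 77.5 CPM in D1, 9.95, 10.8 and 10.9 in MBNL KD and 77.0, 75.4 and 76.0 in P, so only the MBNL KD libraries were low. Syt1, the calcium sensor of vesicle release, was a scarce transcript at 3.20, 3.10 and 3.37 CPM in D1 and 0.611, 0.423 and 0.359 in MBNL KD. Syt1 is also 1 of the 10 neural markers, which together summed to 13.3 to 13.9 CPM in MBNL KD and 18.7 to 20.1 in D1. Akr1a1, an aldehyde reductase, was at 485, 496 and 496 CPM in D1 and at 79.2, 75.4 and 80.7 in MBNL KD. Cyb5r3, the NADH-cytochrome b5 reductase, was at 489, 502 and 494 CPM in D1 and at 90.6, 90.7 and 86.7 in MBNL KD. These last 2 genes were both abundant and strongly reduced, and both stayed within 15% of D1 in P by CPM.

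Cmtm6, known for stabilising PD-L1 at the cell surface, was at 18.3% of D1 in MBNL KD. Tp53inp2, which acts in autophagosome formation, was at 18.9%. Cyb561a3, a lysosomal ferric reductase, was at 20.1%, and Scamp2, a carrier membrane protein of the post-Golgi pathway, at 21.8%. These 4 genes differed in P, where Scamp2 was at 113% of D1, Cyb561a3 at 22.9, 24.6 and 24.3 CPM against 21.9, 23.3 and 22.5 in D1, and Cmtm6 and Tp53inp2 at 70.7% and 61.0%. Arse, an arylsulfatase, was at 23.0% of D1 in MBNL KD and 136% in P. Plxnd1, a semaphorin receptor of the vasculature, was at 233, 245 and 234 CPM in D1, 54.7 to 55.7 in MBNL KD and 35.1, 36.0 and 34.2 in P. It is the other gene among the 12 lowest, beside Smpd3, whose P level was below 20% of D1 (14.8% for Plxnd1 and 9.41% for Smpd3).

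**Figure D2:**
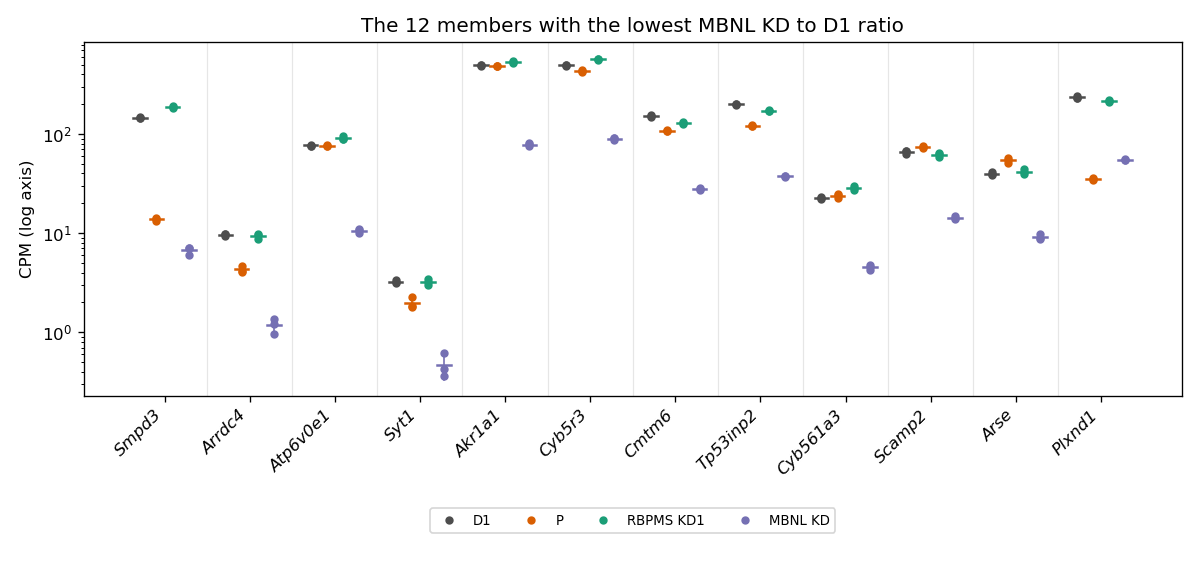
CPM on a log axis of the 12 members with the lowest MBNL KD to D1 ratio. Points are the 3 libraries of each group, horizontal ticks the means and vertical lines the SD; the MBNL KD points of each gene lie below its D1 and RBPMS KD1 points, while the P points are as low as MBNL KD or lower only for Plxnd1 and approach it for Smpd3.

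Among the 10 members with the most counts in D1, Rplp0, the P0 protein of the ribosomal stalk, was at 983, 1003 and 1025 CPM in D1 and at 342, 343 and 343 in MBNL KD. Of 83 cytosolic ribosomal protein genes with at least 200 counts in D1, Rplp0 was the lowest in MBNL KD at 34.1% of D1, the next being Rpl27 at 75.1%, with a median of 97.5% over the 83. Ribosomal protein genes have many near-identical pseudogene copies, so the assignment of their reads is uncertain. Htra1, a secreted serine protease of the arterial wall, was at 908 ± 10.5 CPM in D1 and 340 ± 8.56 in MBNL KD. Atp1b3, a beta subunit of the sodium pump, was at 781 ± 33.5 and 323 ± 6.73 CPM. Rcn1, a calcium-binding protein of the endoplasmic reticulum, was at 662 ± 10.5 and 249 ± 5.23 CPM, and Fkbp10, a collagen chaperone of the same compartment, at 404 ± 3.89 and 176 ± 5.18 (SD, n = 3 in each). Both of these endoplasmic reticulum genes were near the upper limit in RBPMS KD1, where Rcn1 was at 126% of D1 and Fkbp10 at 129%. The rest were Anxa5, a calcium-dependent phospholipid-binding protein (39.1% of D1 in MBNL KD), Gnai2, an inhibitory G protein alpha subunit (48.5%), and Add1, which caps actin at the spectrin junction (36.9%), with Cyb5r3 and Akr1a1 described above.

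For 26 members, relatives or partner subunits named from their symbols also had 200 counts in D1 and were compared in MBNL KD. These relatives were chosen with the members known and are not members, which keeps most genes below 50% out of them by construction. The 44 relatives were at 55.4% to 131% of D1 in MBNL KD, with a median of 88.2%, and edgeR called none of them lower or higher by the fold limit. Among the sphingomyelinases, Smpd1 was at 78.9%, Smpd2 at 73.3% and Smpd4 at 79.3% of D1, beside 4.59% for Smpd3. The paralogous V-ATPase subunit Atp6v0e2 was at 91.1%, beside 13.8% for Atp6v0e1. Adam17 was at 124% where its relative Adam10, the other widely expressed sheddase, was at 23.6%. Of the inhibitory G protein subunits, Gnai1 and Gnai3 were at 131.5% and 105.8% where Gnai2 was at 48.5%. The replicative helicase subunits were less far apart, with Mcm6 at 27.5% and Mcm5, Mcm7, Mcm3, Mcm2 and Mcm4 at 56.1%, 66.6%, 76.3%, 86.8% and 93.9%. Several families hold more than 1 member instead, such as Adam10 and Adam15, Lpcat3 and Lpcat4, Mxd3 and Mxd4, Txnip and Arrdc4, and Wnt4 and Wnt5a.

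**Figure D3:**
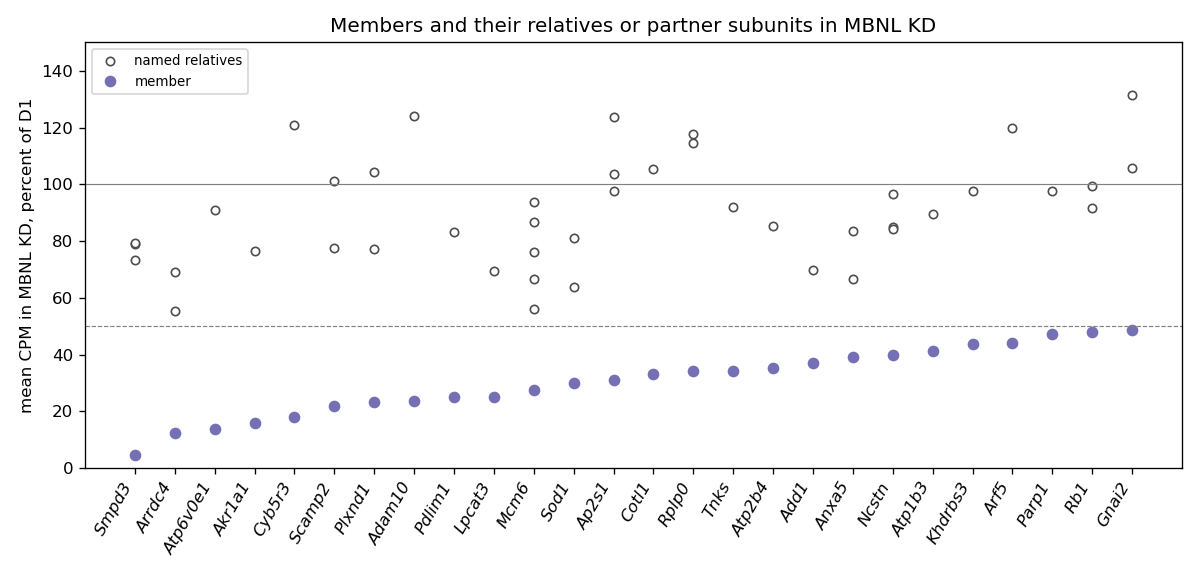
Mean CPM in MBNL KD as a percent of D1 for 26 members (filled) and their named relatives or partner subunits (open), ordered by the member's value. The solid line marks 100% and the dashed line the 50% limit of the rule; the relatives lie between 55.4% and 131%.

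The comparison with P asks how the members stood in cells outside the differentiated state. In P cells 196 of 265 members (74.0%) were neither called lower nor higher, beside 83.6% of the genes with 200 counts in D1, by edgeR's quasi-likelihood test (Benjamini-Hochberg adjusted p under 0.05 and a log2 fold change beyond 1, P against D1). The 3 D1 libraries serve in both the selection and this test. All 265 passed the filter on low counts. The test called 46 members lower in P (17.4%) and 23 higher (8.68%). The same test called 10.2% of the 11359 genes with 200 counts in D1 lower and 6.22% higher, and 11.2% lower and 16.4% higher among all 16814 genes tested. The P and D1 libraries did not overlap for any of these 69 calls, which the limits of the call make likely. The same share over all called genes was not taken. A further 95 members were lower (35.8%) and 72 higher (27.2%) with an adjusted p under 0.05 and a fold change within 2, beside 36% and 32.2% of the genes with 200 counts in D1. The other 29 members had an adjusted p of 0.05 or more.

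The sign of the members' median depended on the scaling, and so did that of all genes. The median log2 fold change of the members was -0.137 with TMM factors, where the median of all genes tested was 0.02 and that of genes with 200 counts in D1 was -0.048, and 0.03 with library totals alone, where the median of all genes was 0.188, so that this scaling moved members and all genes by a like amount. In CPM, the median member was at 102.1% of D1 in P and the median gene with 200 counts at 108.6%. With quantile normalization the medians of members and all genes tested were -0.099 and -0.068. In CPM by library totals, 32 members were lower in P than in MBNL KD, 99 lay between MBNL KD and D1, and 134 were at or above D1. The median gene with 200 counts also lay above D1. The same counts over all genes were not taken, so these are not read as particular to the members. Of the 31 members at or below 30% of D1 in MBNL KD, 4 were called lower in P (12.9%) and 2 higher, with a median log2 fold change of -0.194. Of the other 234, 42 were called lower (17.9%) and 21 higher, with a median of -0.13, and the difference between these groups was not tested. By comparison, of the 112 genes that the opposite rule selects (at least 2-fold higher in MBNL KD, RBPMS KD1 within the same limits), 26 were called lower in P (23.2%) and 20 higher (17.9%).

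The largest falls in P were in Galnt18, an enzyme that starts O-linked glycans. Galnt18 had 572, 583 and 595 counts in D1 and 0, 2 and 4 in P, a ratio of 282 for the summed counts divided by the summed library totals (exact 95% interval 129 to 769, counting error only). Spon1, a secreted matrix protein of the spondin family, was at 110 ± 6.55 CPM (SD, n = 3) in D1 and at 0.824, 0.782 and 0.754 in P (log2 fold change -7.29, SE 0.0647, edgeR adjusted p = 6.5e-40). In MBNL KD it was reduced only to 42.7, 39.9 and 41.5 CPM. The uncharacterised LOC108351027 had 317, 368 and 344 counts in D1 and 4, 2 and 4 in P. The uncharacterised LOC120094227 and C2H1orf54 had log2 fold changes of -3.83 and -3.70. Smpd3 fell by 3.58 (SE 0.0337, edgeR adjusted p = 2.8e-39). Crb2, a Crumbs polarity protein, was at 28.9, 27.6 and 29.3 CPM in D1 and 2.61, 2.92 and 2.58 in P. Fam13a, a RhoGAP domain protein, was at 69.0 ± 0.705 CPM in D1 and 6.72 ± 1.13 in P (SD, n = 3). Apart from Smpd3, these genes were lower in P than in MBNL KD.

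The largest rises in P were in Foxo6, a forkhead factor, at 2.39, 2.84 and 2.87 CPM in D1 and 34.5, 32.2 and 33.0 in P, and at 0.989, 0.935 and 1.09 in MBNL KD. Icos, a costimulatory receptor best known from T cells, was at 5.03, 4.49 and 5.07 CPM in D1, 46.9, 45.7 and 44.5 in P and 1.93, 2.06 and 2.25 in MBNL KD. Both were low in every D1 library and high in every P library. The macrophage and blood marker list, of which 1 gene had 200 counts in D1, summed to 53.1 to 55.7 CPM in P against 56.1 to 60.5 in D1. The source of the Icos reads was not tested. Rhou, an atypical small GTPase, was at 24.5, 24.3 and 23.3 CPM in D1, 179, 183 and 190 in P and 12.3, 12.5 and 10.9 in MBNL KD. Stard4, a cytosolic sterol carrier, was at 32.8 ± 0.278 CPM in D1 and 162 ± 2.84 in P. The others were the uncharacterised LOC102547078 (log2 fold change 2.98, SE 0.0734), the heat shock protein gene Hspa4l (1.82, SE 0.079), Sh3bgrl2 (1.72, SE 0.0715) and the hypoxia-responsive Fam162a (1.70, SE 0.0322), with edgeR adjusted p-values of 2.1e-27, 2.4e-20, 7.1e-21 and 9.7e-31.

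**Figure D4:**
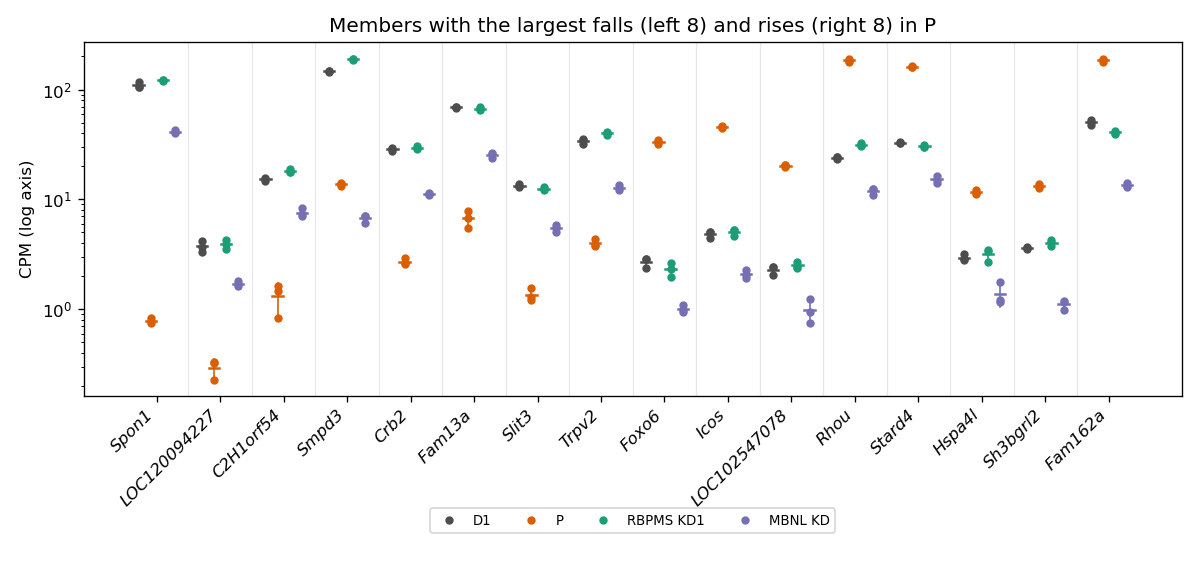
CPM on a log axis of the members with the largest falls (left 8) and rises (right 8) in P among those called there, with points for the 3 libraries of each group, ticks for means and lines for the SD. Galnt18 and LOC108351027, whose P libraries hold 0 to 4 counts, are not drawn; in each of the right 8 genes P is the highest group and MBNL KD the lowest.

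By role, written from the symbols with the members known, 196 members were placed in 13 groups and 69 were left without one. The groups differed in how many of their members moved in P, and the counts below are a description, beside the 10.2% and 6.22% of all genes with 200 counts. Shares above these were not confined to members. Of 52 growth factor ligands tested in P, members or not, 21 were called lower and 14 higher. Of 27 tested integrins and laminins, 10 were called lower and 8 higher. Among the members, of 20 guidance cues, growth factors and surface receptors, 13 were called lower in P and 1, Icos, higher. Of the 4 with the most counts, Pkd1, the large membrane protein polycystin 1, was at 384, 383 and 366 CPM in D1, 158, 154 and 162 in MBNL KD and 151, 156 and 154 in P. Igfbp6, which binds IGF2, was at 236, 231 and 238 CPM in D1, 115, 114 and 115 in MBNL KD and 108, 99.3 and 107 in P. In both genes the MBNL KD and P levels were close to each other, with all 6 of those libraries far below D1. Plxnd1 and Spon1 are the other 2. Slit3, a Robo ligand, was at 13.3 ± 0.409 CPM in D1 and 1.36 ± 0.173 in P.

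In the sphingolipid, phospholipid and sterol group, 2 of 19 members were called lower in P, Smpd3 and Agpat5, and 2 higher, Stard4 and Tecr, the last step of fatty acid elongation. Agpat5, which acylates lysophosphatidic acid, was at 379, 402 and 395 CPM in D1, 176, 171 and 176 in MBNL KD and 103, 99.1 and 95.2 in P. Degs1, the desaturase that makes ceramide from dihydroceramide, was at 155, 159 and 159 CPM in D1, 49.0, 45.6 and 44.1 in MBNL KD and 154, 155 and 144 in P. Fdps, which makes farnesyl diphosphate, was at 49.5% of D1 in MBNL KD and 142% in P. Fdps was also 1 of the 3 members nearest the lower RBPMS KD1 limit, at 76.5% of D1 there.

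None of the 18 trafficking, acidification and autophagy members and none of the 15 protease and protein processing members was called in either direction in P. The former include Tp53inp2, the small GTPase Arf5, the clathrin adaptor subunit Ap2s1 and the lipid scramblase Atg9a, with MBNL KD levels of 18.9%, 44.2%, 31.1% and 41.0% of D1. The latter include Htra1, Rcn1, Fkbp10 and Adamts2, the procollagen N-proteinase, which was at 44.9% of D1 in MBNL KD and 103% in P. Ctsf, a lysosomal cysteine protease, was at 39.3% and 98.2%. In the group for oxidoreduction and for nucleotide and amino acid metabolism, 2 of 12 were called higher in P and none lower. Its 4 most abundant members were Cyb5r3, Akr1a1, Impdh1, the first committed enzyme of guanine nucleotide synthesis (34.1% of D1 in MBNL KD), and Sod1, the cytosolic superoxide dismutase, at 79.0, 75.7 and 79.8 CPM in D1 and 24.0, 23.3 and 23.0 in MBNL KD.

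Of 15 cytoskeleton and adhesion members, 4 were called lower in P and none higher. After Anxa5 and Add1, the most abundant were Myo1d, a class I myosin at 41.0% of D1 in MBNL KD, and Cobl, an actin nucleator at 35.5%. Of 24 small GTPases, kinases and signal adaptors, 1 was called lower and 2 higher. Gnai2, the kinase Mknk2, the phosphatase activator Ptpa and the kinase Uhmk1 led this group in counts, with MBNL KD levels of 48.5%, 46.0%, 46.2% and 35.5% of D1. Of 27 transcription and chromatin members, 2 were lower and 2 higher. Supt6h, a histone chaperone of elongating polymerase, was at 46.9% of D1 in MBNL KD, and Rbpj, the DNA-binding partner of Notch, at 46.5%. Mxd4, a MYC antagonist, was at 37.0%. Myrf, a membrane-bound transcription factor, was at 204, 202 and 200 CPM in D1, 69.0, 68.3 and 68.8 in MBNL KD and 70.9, 73.6 and 73.3 in P, so that it was nearly as low in P as in MBNL KD.

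Among 14 channels, pumps and carriers, 2 were lower in P and 2 higher. Atp2b4, a plasma membrane calcium pump, was at 85.5, 85.7 and 85.6 CPM in D1, 30.6, 28.3 and 32.0 in MBNL KD and 27.3, 26.8 and 27.0 in P. Trpv2, a stretch-sensitive cation channel, was at 31.9, 35.8 and 34.6 CPM in D1, 12.6, 12.1 and 13.6 in MBNL KD and 3.84, 4.33 and 3.73 in P. Itpr3, a calcium release channel, went the other way in P, at 138 to 148 CPM against 58.8, 56.0 and 56.1 in D1 and 24.4, 26.0 and 23.9 in MBNL KD. The channel-like Clic4 was at 30.9% of D1 in MBNL KD, the scramblase and channel Ano6 at 39.4% and the nucleotide-sugar carrier family protein Slc35a4 at 49.2%. Of 9 glycan and GPI-anchor enzymes, 4 were lower in P and none higher. Pigq and Pigs, which act at the start and end of GPI anchoring, were at 24.7% and 25.4% of D1 in MBNL KD and 134% and 133% in P, while Chst11, a chondroitin sulfotransferase, was at 48.6% and 33.9%.

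Of 12 genes of replication, repair, mitosis and the nuclear pore, 1 was called lower in P and none higher. Tnks, the poly(ADP-ribose) polymerase tankyrase, was at 364, 374 and 360 CPM in D1, 126, 125 and 126 in MBNL KD and 112, 113 and 110 in P. The other abundant genes of this group were Rangap1, Parp1 and Mcm6, at 46.8%, 47.4% and 27.5% of D1 in MBNL KD and 129%, 202% and 149% in P. Parp1 was not called, since its log2 fold change by the TMM fit was 0.847. Plk1 and Aurkb, kinases of mitosis, were at 43.6% and 45.6% in MBNL KD and 169% and 185% in P. Of 8 nutrient sensing, stress and cell death genes, 2 were lower in P and 1 higher. Txnip, the thioredoxin-binding alpha-arrestin, was at 201, 206 and 203 CPM in D1, 55.4, 54.1 and 54.9 in MBNL KD and 207, 194 and 190 in P. Bcl2l11, which encodes the cell death protein BIM, was at 29.3% of D1 in MBNL KD, Nudcd3 at 33.0% and the stress protein gene Sesn1 at 46.3%. The ribosome and splicing group held 3 genes, of which Khdrbs3, a STAR family RNA-binding protein, was called higher in P (25.1, 24.0 and 25.9 CPM against 9.14, 7.59 and 9.14 in D1) and Rplp0 and the splicing factor Aar2 were not called.

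**Figure D5:**
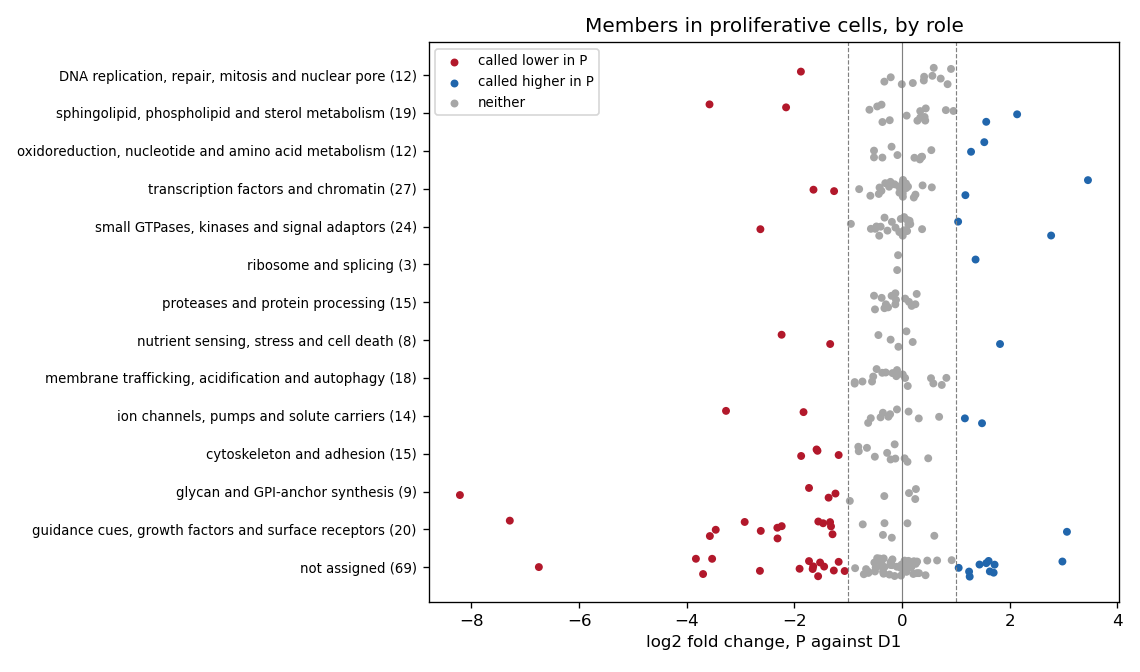
Log2 fold change in P against D1 (edgeR, TMM) of each member, 1 point per gene, in rows by role with the number of members in parentheses and dashed lines at a log2 fold change of -1 and 1. Red points were called lower, blue points higher and grey points neither; 13 of 20 points in the guidance cue and receptor row are red, and the trafficking and the protease rows are all grey.

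The lists of whole pathways held at most 3 members each. The lists were written with earlier results known, and the calls of members in MBNL KD largely follow from the rule. Nothing is therefore read from the MBNL KD counts below beside the 4.14% and 6.1% of all genes tested. Of 25 tested sphingomyelin and ceramide enzymes, edgeR called 3 lower in MBNL KD, Smpd3, Degs1 and the ceramidase Acer2, and 1 higher, the sphingomyelin synthase Sgms2. The list's median log2 fold change was -0.05 beside 0.01 for all genes. Acer2 was left out of the members because it was at 248% of D1 in RBPMS KD1. Of 22 tested V-ATPase subunits, 2 were called lower, Atp6v0e1 and the scarce Atp6v1b1, and none higher, with a median of -0.05.

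Of 7 tested alpha-arrestin and MondoA-MLX genes, the members Arrdc4 and Txnip and 1 other gene were called lower in MBNL KD and none higher, with a median log2 fold change of -0.90. The other gene was Mlxip, which encodes MondoA, at 32.5% of D1 in MBNL KD and just outside the RBPMS KD1 limit. In P, 1 of the 7 was called lower, Arrdc4, and none higher. Of 34 cholesterol and fatty acid synthesis genes, 7 were called lower in MBNL KD and none higher, with a median of -0.52. In P, 9 of the 34 were called higher and 1 lower, with a median of 0.43, beside 6.22% higher and 10.2% lower among genes with 200 counts in D1, which 32 of the 34 had. Of 30 cell cycle and replication genes, 5 were called lower and none higher, with a median of -0.65. Of these, Mcm6, Plk1 and Aurkb are members and Ccnb1 and Rrm2 are not. In P, 1 of these 30 was called higher, Ccnd1, and 1 lower, Ccne1.

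Of 48 tested growth factor ligands, 5 were called lower and 11 higher in MBNL KD, with the members Wnt4, Wnt5a and Inhbb among the former. Wnt4 was at 3.60, 4.27 and 3.87 CPM in D1, 1.79, 1.42 and 1.56 in MBNL KD and 1.64, 1.98 and 1.67 in P. Wnt5a was at 23.6, 26.2 and 23.6 CPM in D1, 11.4, 11.7 and 11.5 in MBNL KD and 30.1, 29.9 and 28.4 in P. In P, Wnt4 was called lower (log2 fold change -1.32, SE 0.12, edgeR adjusted p = 9.3e-12) and Wnt5a was not called. Inhbb, the activin beta B subunit, was at 42.1% of D1 in MBNL KD and 67.7% in P. The 21 contractile genes had 2 called lower and 2 higher in MBNL KD, 5 lower and 1 higher in RBPMS KD1, and 19 lower and 1 higher of the 20 tested in P. The lists of collagens, integrins and laminins, glycolysis, vasoactive receptors, calpains, neuropeptides, stress response and interferon genes also held no member. These lists held 4 to 35 genes with 200 counts in D1, and 265 of all 11359 such genes were members. The absence of members is therefore not read as a result. The lists of matrix proteases, lysosomal hydrolases and splicing regulators held 1 each, Adamts2, Ctsf and Khdrbs3, and the potassium and calcium channel list held Itpr3, Atp2b4 and Trpv2.

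The limits cut through a continuous distribution. Nearest inside the MBNL KD limit were Pxylp1, Plekhm3 and C2H1orf54 at 49.99%, 49.96% and 49.87% of D1, and nearest outside were Nfkb1, Rab11b and Cggbp1 at 50.13%, 50.14% and 50.21%. At the lower RBPMS KD1 limit, Rnf145, Fdps and Gnai2 were inside at 75.2%, 76.5% and 77.7%, and Mlxip, Cit and Slc37a2 outside at 74.7%, 74.3% and 73.8%. At the upper limit, Bckdk, Retreg2 and Rhou were inside at 131.9%, 131.3% and 130.7%, and Zdhhc1, Ezh1 and Dcakd outside at 134.3%, 134.4% and 134.5%. At the count limit, LOC120093684, LOC102547078 and Has1 had means of 202.7, 206.3 and 206.7 counts in D1, and outside it Tm7sf2 and Hipk4 had 186.0 and 177.7.

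Neighbouring genes can share reads, so members next to each other in the RefSeq order of the genes with 200 counts are named here and their number is not read as a result. They were Cntf and Zfp91, Pld2 and Mink1, Proca1 and Supt6h, Arse and Anxa5, Them6 and LOC120093684, and Tfdp2 and Atp1b3. The MBNL KD levels within a pair were 44.2% and 46.2% of D1 for Cntf and Zfp91, 43.5% and 43.9% for Pld2 and Mink1, and 45.4% and 46.9% for Proca1 and Supt6h. They were 23.0% and 39.1% for Arse and Anxa5, 47.0% and 32.9% for Them6 and LOC120093684, and 40.3% and 41.4% for Tfdp2 and Atp1b3. Arse and Anxa5, and Them6 and LOC120093684, lie much farther apart than the other pairs. In Proca1, at 3.91 CPM in D1, and Cntf, at 2.34 CPM, the level was far below that of the neighbour (284 and 160 CPM). Whether reads from the abundant neighbour were assigned to the scarce gene was not tested.

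Promoter windows of 300 bases, 250 before to 50 after the start site (RefSeq, GRCr8), were found for 209 members. Searched on both strands, GGGCGG was in 72.2% of them, against 64.4% of 8957 windows of genes with 200 counts in D1 and 34.9% of all 27457. The median GC content was 64.3%, 61.3% and 52.3% in the same order. CCAAT was in 38.8%, 38.6% and 37.7%, and TATAAA in 5.74%, 6.31% and 14.3%. CACGTG, its own reverse complement, was in 15 of the member windows, which is 7.18%, 9.97% and 6.65%. TGACGTCA was in 2.39%, 3.42% and 1.91% and TGAGTCA in 1.91%, 3.13% and 4.53%. The CArG box, the motif of serum response factor at contractile genes, was in 2 member windows, Mcm6 and Vamp1, or 0.957%, 1.34% and 1.64%. None of the spelled motifs contains another, and a match describes these letters only. Txnip is not among the 15 members with a CACGTG match, and a part of MondoA in the members' levels was not tested. The CACGTG upstream of Arrdc4 is shown because MondoA-MLX dimers bind E boxes of this kind and because Arrdc4 is the second lowest member. The motif starts 177 bases before the start site and is printed in capitals, with flanking bases, as the 30 bases at chr1:131793585-131793614 on the minus strand of GRCr8.
Arrdc4: aaacggcctgtgCACGTGcactctggtgtc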

How the data were processed

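Poly(A) RNA-seq libraries of PAC1 cells, 3 in each of the 4 groups, were analysed. According to the study's methods, the authors subsampled reads to 55000000 per sample, aligned them with STAR (2.7.11b in the submitters' processing notes) to mRatBN7.2 and deposited counts per RefSeq gene from featureCounts. The deposited totals exceed that number, and how mates and strand were counted is not given in the sources used here. The second table holds the authors' normalised signal, corrected for noise and quantile-normalised, and served in alternatives only.

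CPM used the column totals. Each comparison was fitted on its 6 libraries with edgeR 4.0.16 (filterByExpr, TMM, quasi-likelihood F test, R 4.3.3), adjusted over all genes tested, and called at an adjusted p under 0.05 and a log2 fold change beyond 1. The SE is the log2 fold change divided by the root of F. On simulated data for P against D1 with 200 genes changed 4-fold among 15731, 200 were recovered and 0 others called. The simulation gave every gene the same small dispersion and as many rises as falls, so it checks the fitting steps only. Members, lists and roles were chosen with earlier results of these data known. Named genes were the 12 lowest members in MBNL KD, the 10 with the most counts, the 8 largest falls and rises in P, list members, the 4 most abundant per role, those beside each limit, neighbours and relatives. Slit3, Tecr, Adam10, Adam15, Lpcat3, Lpcat4, Mxd3 and Vamp1 were named after their values were seen. A few genes that these rules would name are not reported here. Alternatives used DESeq2 1.42.0 and limma 3.58.1.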

Additional observations from a re-analysis of the deposited data

How the results depend on the processing

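The number of members was 137 with RBPMS KD1 limits of 10% below and 11% above D1 in place of 25% and 33%, a narrower window by construction. It lay between 204 and 320 under the other choices of scaling, count minimum and replicate separation and between 263 and 271 with 1 library left out. Members called lower in P numbered 44 to 60 and members called higher 21 to 31 over all alternatives, against 46 and 23, each within 1.5 times. The median log2 fold change of members in P was -0.099 with quantile normalization, -0.116 with at least 10 counts in all 6 libraries (263 members tested), -0.096 with limma on the normalised values, -0.224 with RBPMS KD1 as the reference, and 0.03 with library totals only, an alternative chosen after seeing the data; with 1 library left out it ran from -0.164 to -0.135. The cause of these shifts was not tested. D1 and P libraries of the same number did not deviate together (correlations of -0.0254, 0.0303 and 0.0493 over 11756 genes), so the numbers were not taken to pair them, and adding the replicate number to the model as a block gave 46 lower, 23 higher and a median of -0.137. The effect of depth on the members' values and calls was not tested.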
